A study of Mus musculus with 9 samples.

Results

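The levels of 10 genes that mark microglia and macrophages were followed across cultured mouse neurons, neural stem cells (NSCs) and yNSCs. The set held every probe set that the array annotation names by a single symbol among C1qa, C1qb, C1qc, Tyrobp, Csf1r, Cx3cr1, Cd68, Ctss, Lyz1 and Lyz2, which came to 17 of 45101 probe sets and 10 of the 18193 genes tested. By the brightest probe set of each gene, all 10 lay above background in neurons and all 10 at background in NSCs. In yNSCs 5 lay at background (C1qa, C1qb, C1qc, Tyrobp and Cx3cr1) and 5 above it (Csf1r, Cd68, Ctss, Lyz1 and Lyz2). This split changed with the background level chosen and, for Csf1r, with the probe set. The brightest probe set of Lyz1 may match other sequences, and its probe set without that mark lay at background in every group. All 10 were called lower in yNSCs than in neurons, against 27.9% of all genes, and 9 were called higher in yNSCs than in NSCs, against 21.3%.

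Each group had 3 arrays, called biological replicates A, B and C by the labels. The neurons were primary mouse cortical cultures, which the study's methods take from late embryos or newborn pups, kept in Neurobasal medium with B27 and with cytosine arabinoside, which is toxic to dividing cells. The yNSCs were cells with stem cell properties that the study derived from neurons with lentiviral vectors for the rtTA transactivator and a doxycycline-inducible wild-type YAP, a coactivator restrained by the Hippo pathway, and could be propagated after doxycycline was withdrawn. The NSCs were native neural stem cells with no stated transgene, and NSCs and yNSCs shared the same DMEM/F12 medium with N2, EGF and bFGF. Mouse strain, the age of the NSC donors and the passage of the arrayed cells were not given in the labels, and no sort or depletion of microglia is stated for these arrays.

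Microglia are the resident macrophages of the brain. They arise outside the neural lineage, depend on signalling through the Csf1r receptor, clear debris through lysosomes and make most of the C1q of the brain. C1q is the recognition molecule of the classical complement pathway and is built from 3 chains, the products of C1qa, C1qb and C1qc. Macrophages in other tissues share most of these genes. In bulk RNA, fewer microglia in a culture and less of a given RNA per microglial cell cannot be told apart, and no measurement here assigns a transcript to a cell.

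Values are log2 expression levels per probe set, so a difference of 1 is a 2-fold difference. Probe sets differ in how brightly they read the same amount of RNA, so their levels give no order of transcript amounts between genes, and the background level below, taken from other probe sets, is a rough guide. A gene with several probe sets was represented by the brightest, that is, the probe set with the largest mean across 9 arrays. A gene was at background in a group when its mean lay below the 90th percentile of 25 genes of other tissues (digestive enzymes, sperm protamines and the like), which was 5.44 in neurons, 5.54 in NSCs and 5.40 in yNSCs. Krt10, the brightest of the 25, read 7.41, 6.94 and 7.61 in that order. Among the 10 genes where counted above background, Cx3cr1 in neurons (6.19) and Csf1r and Ctss in yNSCs (5.67 and 6.66) lay under it. Array medians lay between 4.90 and 5.02. A gene was called when its adjusted p (limma, Benjamini-Hochberg over 18193 genes) was under 0.05.

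The sequences just upstream of the start sites are given for some of these genes, with their places and the likeness of the lysozyme genes there. RefSeq (GRCm38.p6) promoter windows of 300 bases, 250 before and 50 after the annotated start, were found for 7 of the 10 genes. C1qa, Tyrobp and Csf1r had no entry. The letters GAGGAA, a sequence bound by PU.1 (the product of Spi1, a factor required for the macrophage lineage), were searched for on both strands. No other motif or shorter form was searched. They occurred in the windows of C1qb, C1qc, Cd68 and Ctss and not in those of Cx3cr1, Lyz1 and Lyz2. The motif occurred in 28.3% of all 32851 windows and in 23.3% of the 250-base upstream stretches, so a match in 4 of 7 windows is a description of these letters and not of a bound site. The 250 bases before the start of the 4 genes with a match follow, with the motif or its reverse complement in capitals. C1qb and C1qc, which neighbour each other on chromosome 4, are shown because their levels moved together, and Cd68 and Ctss because they stayed above background in yNSCs.
C1qb (chr4:136886201-136886450, minus strand): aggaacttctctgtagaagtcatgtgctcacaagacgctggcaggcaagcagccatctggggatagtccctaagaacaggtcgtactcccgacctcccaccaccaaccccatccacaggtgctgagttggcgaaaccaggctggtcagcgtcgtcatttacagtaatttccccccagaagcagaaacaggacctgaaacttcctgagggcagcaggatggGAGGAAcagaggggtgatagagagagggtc
C1qc (chr4:136892915-136893164, minus strand): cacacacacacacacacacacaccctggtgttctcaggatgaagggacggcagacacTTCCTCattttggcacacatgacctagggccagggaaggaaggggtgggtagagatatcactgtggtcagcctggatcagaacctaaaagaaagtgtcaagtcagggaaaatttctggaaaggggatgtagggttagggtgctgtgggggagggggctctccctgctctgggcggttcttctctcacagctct
Cd68 (chr11:69666171-69666420, minus strand): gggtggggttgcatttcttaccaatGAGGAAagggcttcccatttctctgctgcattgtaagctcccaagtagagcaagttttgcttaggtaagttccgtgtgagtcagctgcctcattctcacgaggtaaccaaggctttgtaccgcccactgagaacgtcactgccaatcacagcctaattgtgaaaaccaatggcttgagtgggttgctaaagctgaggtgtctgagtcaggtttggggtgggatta
Ctss (chr3:95526536-95526785, plus strand): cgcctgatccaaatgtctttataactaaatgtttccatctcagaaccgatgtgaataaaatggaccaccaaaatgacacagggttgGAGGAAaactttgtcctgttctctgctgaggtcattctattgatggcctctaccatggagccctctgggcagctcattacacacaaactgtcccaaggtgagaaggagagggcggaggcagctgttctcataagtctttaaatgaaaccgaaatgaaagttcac

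The motif began 30 bases before the start of C1qb, 225 bases before that of Cd68 and 164 bases before that of Ctss. For C1qc the match was the reverse complement, which began 193 bases before the start. The reverse complement also occurred past the printed bases, at the start of Ctss and 29 bases after that of Cd68. Lyz1 and Lyz2 also neighbour each other, on chromosome 10, and are near-identical copies around their starts. The 130 bases before each start, a stretch whose length was chosen after the sequences had been compared, differed at 10 positions (92.3% identity without gaps) and the 50 bases after it at 1 (98% identity). Further upstream, 88 of 120 bases differed when compared without gaps. The 130 bases are shown with the differing bases in capitals. They lie before the start, outside the transcript, so they do not show how far the array can separate the genes. Probe sequences were not compared.
Lyz2 (chr10:117282273-117282402, minus strand): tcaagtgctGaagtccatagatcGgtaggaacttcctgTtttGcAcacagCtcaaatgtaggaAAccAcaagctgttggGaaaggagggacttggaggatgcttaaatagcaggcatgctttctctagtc
Lyz1 (chr10:117292869-117292998, minus strand): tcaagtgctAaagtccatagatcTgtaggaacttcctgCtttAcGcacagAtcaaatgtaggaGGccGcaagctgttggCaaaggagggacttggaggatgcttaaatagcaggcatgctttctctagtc

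In the comparison of yNSCs with neurons, which asks what the cells derived from neuron cultures retained of those cultures, 10 of 10 genes were called lower, against 27.9% of all genes called lower and 34.6% called higher. The median difference of the 10 was -3.20, beside -0.01 for all genes. The differences ran from -5.86 for C1qb to -0.73 for Cd68. The neuron and yNSC arrays did not overlap for any of the 10, where 30.2% of all genes separated the groups in that direction. Counted by probe set, 16 of 17 were called lower, against 28.1% of all probe sets.

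The 3 chains of C1q gave the largest differences among the 10 genes. C1qa read 10.56, 10.59 and 10.12 in neuron replicates A, B and C, 4.82, 5.13 and 4.88 in the yNSCs and 3.47, 3.99 and 3.73 in the NSCs. C1qb read 10.65, 10.65 and 10.25 in neurons, 4.60, 4.63 and 4.73 in yNSCs and 3.35, 3.18 and 3.35 in NSCs. C1qc read 10.15, 10.14 and 9.69 in neurons, 4.68, 4.85 and 4.92 in yNSCs and 3.93, 4.22 and 4.31 in NSCs. For each chain the 3 groups were fully apart, with neurons high, yNSCs low and NSCs lowest, and replicate C was the lowest neuron array.

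On the log2 scale C1qa fell by 5.48 (SE 0.162, limma adjusted p = 4.85e-11) from neurons to yNSCs, C1qb by 5.86 (SE 0.124, adjusted p = 4.21e-12) and C1qc by 5.18 (SE 0.148, adjusted p = 3.48e-11). On a linear scale yNSCs held 2.24%, 1.72% and 2.76% of the neuron level. Ordered from the lowest difference, C1qb stood 58th, C1qa 93rd and C1qc 117th of 18193 genes. Since the yNSC means of 4.94 ± 0.16, 4.65 ± 0.07 and 4.82 ± 0.12 (SD, n = 3) all lay below the background level of 5.40, the sizes of these differences are uncertain at the low end. C1qb had a pair of further probe sets whose suffix marks probes that may match other sequences. They gave means of 7.42 and 7.80 in neurons, 4.69 and 3.04 in yNSCs and 4.27 and 2.36 in NSCs, and both were called lower in yNSCs than in neurons. With the 3 probe sets averaged the difference for C1qb was -4.45.

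Tyrobp encodes the adaptor through which Trem2 and other myeloid receptors signal. It read 10.18, 10.32 and 9.89 in neurons, 5.18, 5.27 and 5.30 in yNSCs and 3.77, 3.88 and 3.29 in NSCs. The groups did not overlap, and the yNSC mean of 5.25 ± 0.06 (SD, n = 3) lay just under the background level of 5.40. Tyrobp fell by 4.88 (SE 0.158, adjusted p = 1.02e-10) between neurons and yNSCs, to 3.40% of the neuron level, a size that is uncertain at the low end as for the C1q chains.

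Csf1r, the receptor for the growth factors Csf1 and Il34, lay on the other side of that level. It read 8.99, 9.13 and 8.21 in neurons, 5.86, 5.54 and 5.62 in yNSCs and 4.52, 4.46 and 4.57 in NSCs, again with no overlap. It fell by 3.10 (SE 0.198, adjusted p = 3.79e-08) to 11.6% of the neuron level, and its yNSC mean of 5.67 ± 0.17 (SD, n = 3) lay just above the background level of 5.40. The other Csf1r probe sets read 5.75 and 4.77 on average in yNSCs, of which the first lay above that level and the second below it. Its place among the genes above background therefore rested on the choice of probe set, and with the 3 averaged its difference was -1.90.

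Cx3cr1 is the receptor for the neuronal chemokine Cx3cl1. It read 6.50, 6.48 and 5.58 in neurons, 4.08, 4.01 and 4.20 in yNSCs and 4.15, 3.97 and 4.04 in NSCs. Neuron replicate C lay close to the background level of 5.44, and the yNSC and NSC arrays overlapped. Cx3cr1 fell by 2.09 from neurons to yNSCs (SE 0.203, adjusted p = 1.81e-06), where it was at background, so this size is uncertain too. It was the member with no called difference between yNSCs and NSCs, at 0.04 (95% interval -0.40 to 0.49, adjusted p = 0.892). Its second probe set read 4.56, 3.80 and 3.52 on average in neurons, yNSCs and NSCs, below background in each, and the average of both probe sets differed by -1.42 between yNSCs and neurons.

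Cd68, Ctss and the lysozyme genes encode proteins of lysosomes, phagosomes or secretion, and in yNSCs all of them lay above background. Cd68, a glycoprotein of macrophage lysosomes and endosomes, read 9.26, 9.35 and 8.84 in neurons, 8.24, 8.40 and 8.62 in yNSCs and 3.96, 4.52 and 4.18 in NSCs. The highest yNSC array lay just below the lowest neuron array, and the NSC arrays lay far below both. The difference between yNSCs and neurons was -0.73 (SE 0.172, 95% interval -1.11 to -0.35, adjusted p = 0.00258), so that yNSCs held 60.3% of the neuron level. For the other 9 members yNSCs held 1.72% to 23.5% of the neuron level.

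Ctss encodes cathepsin S, a lysosomal cysteine protease of antigen-presenting cells. It read 10.34, 10.06 and 9.45 in neurons, 6.63, 6.61 and 6.74 in yNSCs and 3.99, 4.24 and 4.22 in NSCs. The yNSC arrays lay close to each other and between the other groups without overlap. Ctss fell by 3.29 (SE 0.185, adjusted p = 1.18e-08) from neurons to yNSCs, to 10.2% of the neuron level.

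**Figure D1:**
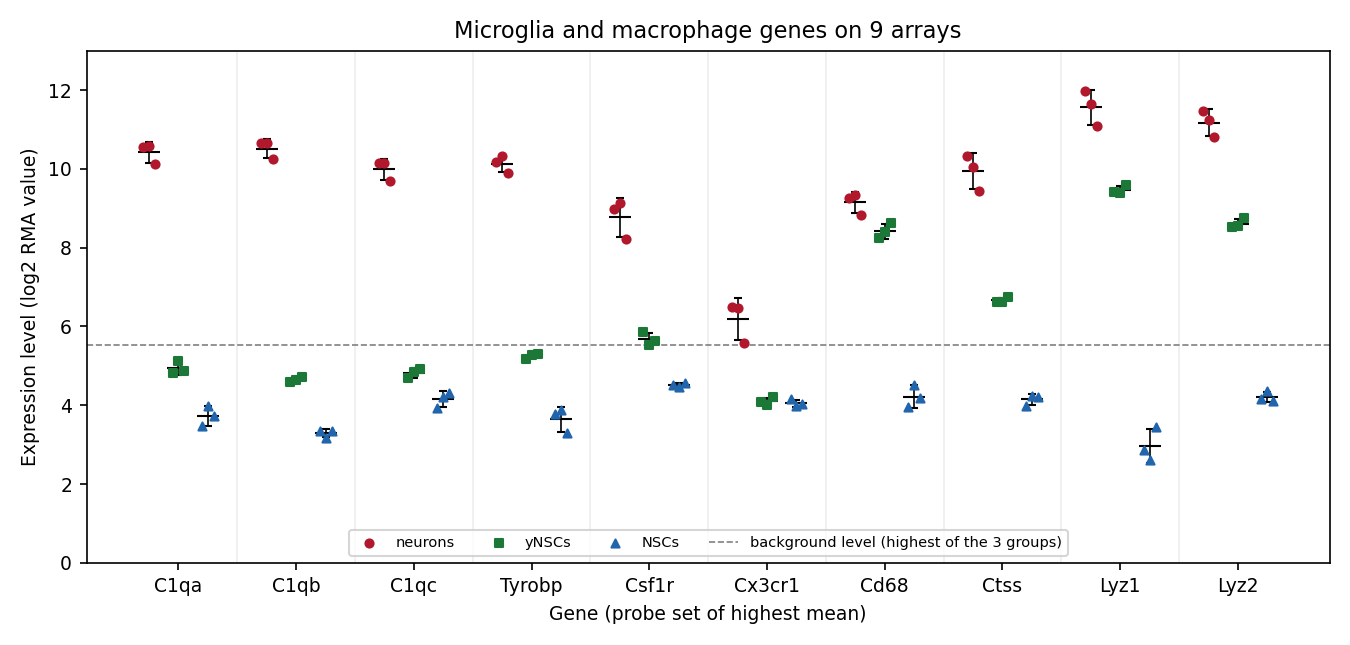
Expression level (log2 RMA value, vertical axis) of the 10 genes in neurons (circles), yNSCs (squares) and NSCs (triangles), 1 point an array, with the mean and SD of each group as a bar. The dashed line is the highest of the 3 background levels, 5.54. The C1q chains, Tyrobp and Cx3cr1 lie below the line in yNSCs, whereas Cd68, Ctss, Lyz1 and Lyz2 lie between the line and the neurons.

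Lysozyme cleaves bacterial cell walls. In the mouse Lyz2 is the macrophage form and Lyz1 is best known from Paneth cells of the gut. Lyz2 read 11.48, 11.24 and 10.81 in neurons, 8.52, 8.56 and 8.75 in yNSCs and 4.15, 4.36 and 4.12 in NSCs. Lyz1, by its probe set of highest mean, read 11.97, 11.64 and 11.08 in neurons, 9.41, 9.38 and 9.58 in yNSCs and 2.86, 2.61 and 3.44 in NSCs. Both followed the same order with wide gaps between the groups. Lyz2 fell by 2.57 (SE 0.157, adjusted p = 2.49e-08) from neurons to yNSCs, to 16.9% of the neuron level, and Lyz1 by 2.11 (SE 0.230, adjusted p = 5.20e-06), to 23.2%.

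The 3 probe sets annotated to Lyz1 did not give the same answer. A second probe set, which like the first carries the suffix for probes that may match other sequences, read 9.83 ± 0.58 in neurons, 8.09 ± 0.07 in yNSCs and 2.11 ± 0.36 in NSCs (SD, n = 3). The third, without that suffix, read 3.01, 3.16 and 3.63 in neurons, 2.99, 2.91 and 3.20 in yNSCs and 2.74, 2.86 and 3.05 in NSCs. Its arrays overlapped between groups, all lay below background, and none of its differences was called (adjusted p over all probe sets 0.243 for yNSCs against neurons, 0.0562 for NSCs against neurons and 0.525 for yNSCs against NSCs). Which of the neighbouring genes, printed above, the 2 bright Lyz1 probe sets detect was not tested, and the values given for Lyz1 may not be independent of those for Lyz2. With its 3 probe sets averaged, Lyz1 differed by -1.36 between yNSCs and neurons.

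**Figure D2:**
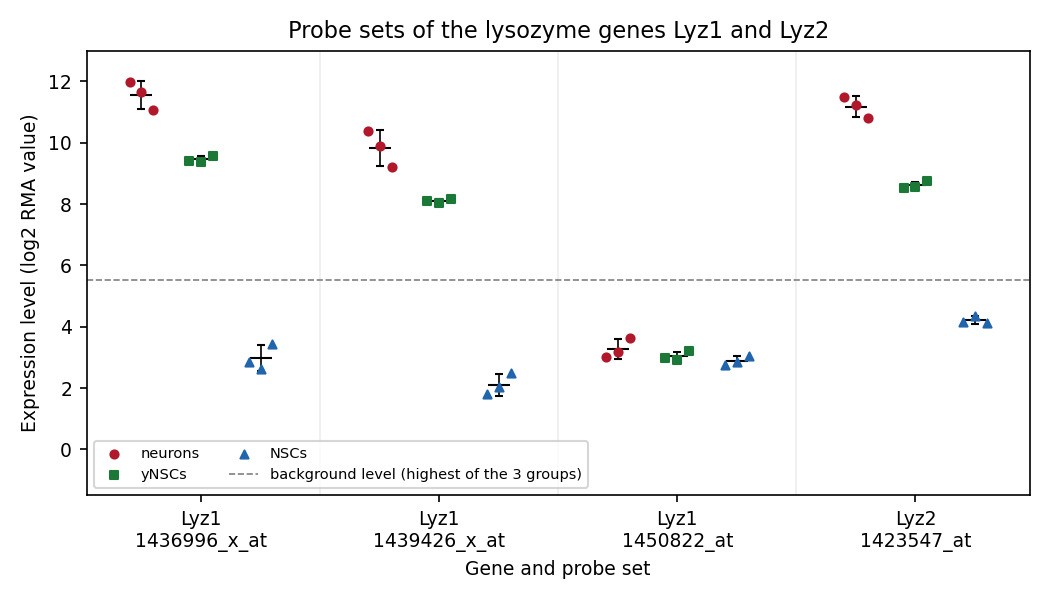
Expression level (log2 RMA value, vertical axis) of the 4 lysozyme probe sets in neurons (circles), yNSCs (squares) and NSCs (triangles), 1 point an array, with the mean and SD of each group. The probe set of Lyz2 and the first 2 of Lyz1 separate the 3 groups, and the remaining Lyz1 probe set lies below the dashed background level of 5.54 on all 9 arrays.

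In NSCs against neurons, which sets cultures of separate origin side by side, 10 of 10 genes were called lower, against 34.1% of all genes called lower and 33.3% called higher. The 10 did not overlap between the groups, where 35.6% of all genes separated them in that direction, and 16 of 17 probe sets were called lower against 32.8% of all probe sets. The median difference was -6.16, beside -0.07 for all genes. Lyz1 gave the largest difference among the 10, -8.59 (adjusted p = 1.95e-11), a 386-fold difference and the second lowest of 18193 genes. This value is that of its brightest probe set, which may match other sequences. The Lyz1 probe set without that suffix differed by -0.38 (adjusted p over all probe sets 0.0562). After Lyz1, C1qb stood at -7.22 (adjusted p = 8.68e-13) and Lyz2 at -6.97 (adjusted p = 5.48e-12). Cx3cr1 gave the smallest, -2.13 (adjusted p = 1.40e-06). Because all 10 lay at background in NSCs, the sizes of these differences are uncertain at the low end, and the same holds for differences between yNSCs and NSCs. This comparison and that of yNSCs with neurons share the neuron arrays.

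In yNSCs against NSCs, which grew in the same medium, 9 of 10 genes were called higher and 0 lower, against 21.3% of all genes called higher and 18% called lower. The same count, 9 of 10, did not overlap between the groups, where 29.6% of all genes separated them in that direction. Of the 17 probe sets 11 were called higher, against 18.1% of all probe sets. The median difference of the 10 genes was 1.48, beside 0.07 for all genes.

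The largest of these differences were those of the lysozyme genes, Cd68 and Ctss. Lyz1 was 6.49 higher in yNSCs (adjusted p = 1.53e-09), an 89.7-fold difference that ranked 3rd from the highest of 18193 genes. This value is that of its brightest probe set, which may match other sequences. The Lyz1 probe set without that suffix differed by 0.15 (adjusted p over all probe sets 0.525). Lyz2 was 4.40 higher (21.1-fold, adjusted p = 1.55e-09) and ranked 34th. Cd68 was 4.20 higher (18.4-fold, adjusted p = 4.15e-09) and ranked 41st, and Ctss was 2.51 higher (5.70-fold, adjusted p = 5.20e-07). The receptors, the adaptor and the C1q chains differed less.

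The remaining called differences between yNSCs and NSCs were smaller, and 4 of these 5 lay between values at background in both groups. Tyrobp was 1.60 higher (adjusted p = 6.10e-06), C1qb 1.36 (adjusted p = 3.24e-06), C1qa 1.21 (adjusted p = 7.94e-05), Csf1r 1.16 (adjusted p = 5.40e-04) and C1qc 0.66 (adjusted p = 0.00334). For the C1q chains and Tyrobp both groups lay under their background level, so a called difference here says that the probe set read higher and not that the transcript was present. Neither of the other Csf1r probe sets was called in this comparison, with differences of 0.34 (adjusted p = 0.0720) and 0.11 (adjusted p = 0.537). The call for Csf1r against NSCs thus came from 1 of its 3 probe sets.

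The neuron arrays themselves differed in the level of these genes. Replicate C was the lowest neuron array for 10 of 10 genes, where it was the lowest for 36.2% of all genes. Its median deviation from the neuron mean was -0.34 over the 10 (range -0.61 to -0.24), beside -0.02 over all genes. Among other lists, counting the genes above background in neurons, replicate C was lowest for 10 of 17 other microglia and macrophage genes, 12 of 14 lysosomal genes, 4 of 12 neuronal markers and 4 of 9 astrocyte markers. It was lowest for 2 of 5 perivascular and peripheral macrophage genes (median deviation -0.03) and 2 of 3 genes of other tissues (median deviation -0.29). For complement genes this was 1 of 3, for myeloid ligands and factors 6 of 10 and for neural stem cell markers 4 of 12. For oligodendrocyte lineage markers it was 1 of 7, for mural cell and fibroblast markers 1 of 5, for lymphocyte and granulocyte genes 0 of 2 and for endothelial markers 0 of 1. The mean level of the 12 neuronal markers stayed within 11.25 to 11.31 on the 3 neuron arrays, while the mean of the 10 microglia and macrophage genes ran from 9.39 to 10.01. It ran from 6.20 to 6.33 on the yNSC arrays and from 3.82 to 3.94 on the NSC arrays. Without neuron replicate C the 10 genes were still called lower in yNSCs.

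**Figure D3:**
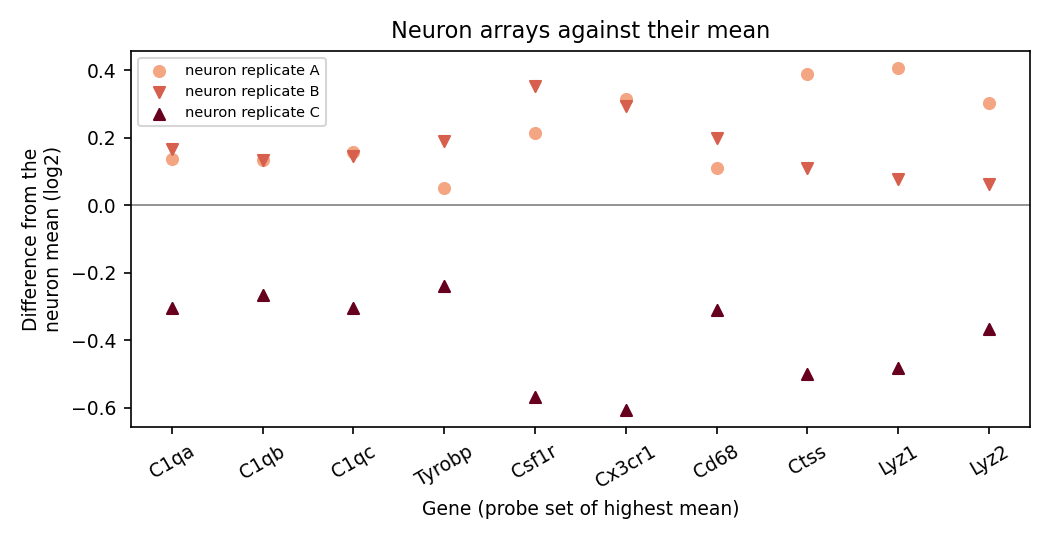
Difference of each neuron array from the mean of the 3 neuron arrays (log2, vertical axis) for the 10 genes, with replicates A, B and C as separate symbols. Replicate C lies between -0.61 and -0.24, below the mean for every gene shown, and replicates A and B lie above it.

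Lists of other cell types were read in the same way. The mean of the 12 neuronal markers was 6.05 to 6.16 on the yNSC arrays and 6.13 to 6.30 on the NSC arrays, against 11.25 to 11.31 in neurons, so these fell in both. The mean of the 10 astrocyte markers was 9.83 to 9.96 in neurons, 9.73 to 9.86 in yNSCs and 8.07 to 8.69 in NSCs, a mean over genes that were called in both directions in yNSCs against neurons (3 lower and 4 higher). In that comparison 27.9% of all genes were called lower and 34.6% higher. Of 9 oligodendrocyte lineage markers, 4 were called lower and 3 higher. Of 12 mural cell and fibroblast markers, 6 were called lower and 3 higher. Of 10 endothelial markers, 2 were called lower and 0 higher, both below those shares. Single genes moved as far as the members, such as Pdgfra (-5.57) and Tagln (6.21), which were picked after their values were seen. Of 15 measured lymphocyte and granulocyte genes, 13 lay at background in neurons and 14 in each of the other groups. The part of RNA from any of these cells in the levels of the 10 genes was not tested. The difference between probe sets at the ends of the actin transcript, 3' minus 5', was 0.03 to 0.21 in neurons, 0.19 to 0.31 in yNSCs and 0.56 to 0.70 in NSCs, and its part was not tested either.

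A wider list of 31 measured genes of microglia and macrophages contained 21 called lower and 1 called higher in yNSCs against neurons, with a median difference of -1.37. Of all genes 27.9% were called lower and 34.6% higher there. In neurons 17 of them lay above background, and in yNSCs 9. The largest called differences were those of Mpeg1, a pore-forming protein of phagosomes, at -4.51 (adjusted p = 2.48e-10), Ly86 at -4.16 (adjusted p = 3.31e-09) and the immunoglobulin receptor chains Fcgr3 at -3.75 (adjusted p = 6.34e-10) and Fcer1g at -3.48 (adjusted p = 7.06e-10). These fell from 9.47, 8.39, 8.41 and 8.47 in neurons to 4.96, 4.23, 4.66 and 4.99 in yNSCs, all under background there. Cd86 (-0.31, adjusted p = 0.0592) and the integrin chain Itgb2 (0.26, adjusted p = 0.221) were the largest differences that did not pass. The 1 gene called higher was Sall1, at 1.65 (adjusted p = 3.96e-05), a transcription factor that microglia share with neural progenitors. It was named after its values were seen. When the 40% of genes of lowest mean were left out, 10 of the list were called lower, and without neuron replicate B 2 were called higher.

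In NSCs against neurons the wider list contained 27 called lower and 3 higher, with a median difference of -2.08, beside 34.1% and 33.3% of all genes. In yNSCs against NSCs it contained 12 called higher and 3 lower, with a median of 0.34, beside 21.3% and 18% of all genes. The same shares of all genes stand beside the counts of the lists below. Some defining genes of microglia were looked up after their values were seen. Aif1 (4.90 in neurons), P2ry12 (4.47) and Tmem119 (4.15) lay below the background level in all 3 groups, although Aif1 was called lower in yNSCs than in neurons (-2.07, adjusted p = 8.00e-08), as was P2ry12 (-0.40, adjusted p = 0.0170). Fcrls lay above background in neurons at 6.92 ± 0.06 and read 3.89 ± 0.11 in yNSCs and 3.55 ± 0.17 in NSCs (SD, n = 3). Olfml3 lay above background in all 3 groups, at 6.09 in neurons, 6.20 in yNSCs and 8.27 in NSCs. Trem2, the receptor that signals through Tyrobp, stood at 8.09 ± 0.19 in neurons, 5.19 ± 0.20 in yNSCs and 5.10 ± 0.12 in NSCs (SD, n = 3). Of the whole list, 14 of 31 genes lay at background in neurons.

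Genes of perivascular and peripheral macrophages gave 7 called lower and 0 higher among 12 measured in yNSCs against neurons, with a median of -0.58. Beside them 27.9% of all genes were called lower and 34.6% higher. Stab1 (-2.81, adjusted p = 3.41e-09), Pf4 (-2.78, adjusted p = 6.18e-07), the scavenger receptor Cd36 (-2.50, adjusted p = 2.38e-09) and the mannose receptor Mrc1 (-2.49, adjusted p = 5.13e-09) fell most. In neurons 5 of the 12 lay above background and in yNSCs 0. In NSCs against neurons 10 were called lower and 0 higher (median -0.66), and in yNSCs against NSCs 2 were called in each direction (median 0.08). The count called higher there was 1 without NSC replicate B.

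The C1q chains act with other complement proteins. Of 12 measured complement genes outside the C1q chains, 3 were called lower and 1 higher in yNSCs against neurons, with a median difference of -0.17. These counts did not exceed the shares of all genes, 27.9% called lower and 34.6% higher. C3ar1, the receptor for the C3a fragment, fell by 2.59 (adjusted p = 1.20e-09), from 7.02 to 4.43. Serping1, the inhibitor of the C1 proteases, rose by 2.17 (adjusted p = 4.58e-08), from 4.16 ± 0.24 in neurons to 6.33 ± 0.16 in yNSCs, with 3.77 ± 0.17 in NSCs (SD, n = 3). The calls for Cd55 (-0.75, adjusted p = 1.43e-04) and Cfb (-0.33, adjusted p = 0.0216) lay below background in all groups. C2 (0.29, adjusted p = 0.113) and Clu (-0.21, adjusted p = 0.200) did not pass. The genes of the C1 proteases, C1ra and C1s1, looked up after their values were seen, also lay below background everywhere, at 3.61 and 3.86 in neurons and 3.42 and 3.87 in yNSCs. In NSCs against neurons 10 were called lower and 0 higher (median -0.48), and in yNSCs against NSCs 5 were called higher and 0 lower (median 0.29). Without neuron replicate A the count called higher in yNSCs against neurons was 2.

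Ligands, partners and transcription factors of the myeloid receptors split. Among 20 measured, 10 were called lower and 6 higher in yNSCs against neurons (median -0.36), beside 27.9% and 34.6% of all genes. Of the 20, 10 lay at background in neurons and 11 in yNSCs, and some of the calls were of genes at background in both. The lowest were Mef2c (-5.03, adjusted p = 8.55e-12), a factor that cortical neurons also use, and the pattern receptor Clec7a (-4.36, adjusted p = 3.43e-11). Csf1, a ligand of Csf1r, rose by 1.79 (adjusted p = 8.26e-07), from 7.27 ± 0.23 in neurons to 9.06 ± 0.29 in yNSCs, and stood at 7.63 ± 0.14 in NSCs (SD, n = 3). Runx1 rose by 1.63 (adjusted p = 7.35e-06). The receptor Csf1r and its ligand Csf1 thus differed in opposite directions between yNSCs and neurons. Csf1 was 1.43 higher in yNSCs than in NSCs (adjusted p = 1.85e-05), whereas Csf1r was called higher there by its brightest probe set only. Syk (-0.31, adjusted p = 0.0506) and Ikzf1 (-0.18, adjusted p = 0.116) did not pass. In NSCs against neurons 12 were called lower and 3 higher (median -0.47), and in yNSCs against NSCs 9 were called higher and 3 lower (median 0.25).

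Other ligands and factors were looked up after their values were seen. Cx3cl1, the ligand of Cx3cr1, read 9.02 ± 0.04 in neurons, 8.39 ± 0.12 in yNSCs and 6.56 ± 0.19 in NSCs, and each difference was called. Spi1, which encodes the PU.1 factor whose motif is printed above, read 5.77 ± 0.37 in neurons, 5.18 ± 0.13 in yNSCs and 5.16 ± 0.18 in NSCs (SD, n = 3). It lay above the background level of 5.44 in neurons only, and there under Krt10 (7.41), the brightest of the genes of other tissues. Whether Spi1 was detected in neurons is therefore uncertain. Its difference was -0.59 between yNSCs and neurons (adjusted p = 0.00929) and 0.02 between yNSCs and NSCs (adjusted p = 0.951).

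Lysosomal proteases and membrane proteins outside the members were called in each direction about as often as genes at large. Of 15 measured, 5 were called lower and 5 higher in yNSCs against neurons. Of all genes 27.9% were called lower and 34.6% higher. The median difference of the 15 was -0.03. Cathepsin H (Ctsh) rose by 3.48 (adjusted p = 2.62e-08) and the membrane protein Lamp2 by 1.997 (adjusted p = 1.76e-08). Cathepsin B (Ctsb) fell by 1.12 (adjusted p = 5.16e-06) and Grn by 0.90 (adjusted p = 4.25e-04). Ctsc (0.24, adjusted p = 0.184) and the cathepsin inhibitor Cst3 (0.13, adjusted p = 0.246) did not pass. The count called higher dropped to 3 when replicate C of the neurons, or that of the yNSCs, was left out. The count called lower was 3 without neuron replicate A or B or without yNSC replicate A or B.

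Against NSCs, 10 of the 15 lysosomal genes were called higher in yNSCs and 3 lower, with a median of 0.68. Of all genes 21.3% were called higher and 18% lower there. In NSCs against neurons 9 were called lower and 4 higher (median -0.46), beside 34.1% and 33.3% of all genes. Cd68 and Ctss, with differences of 4.20 and 2.51, stood beside a list in which more genes were called higher than lower in yNSCs against NSCs. The highest and lowest differences of the 15, looked up after their values were seen, were the 2.16 of Cst3 (adjusted p = 6.33e-09) and the -2.76 of Ctsc (adjusted p = 3.54e-08).

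**Figure D4:**
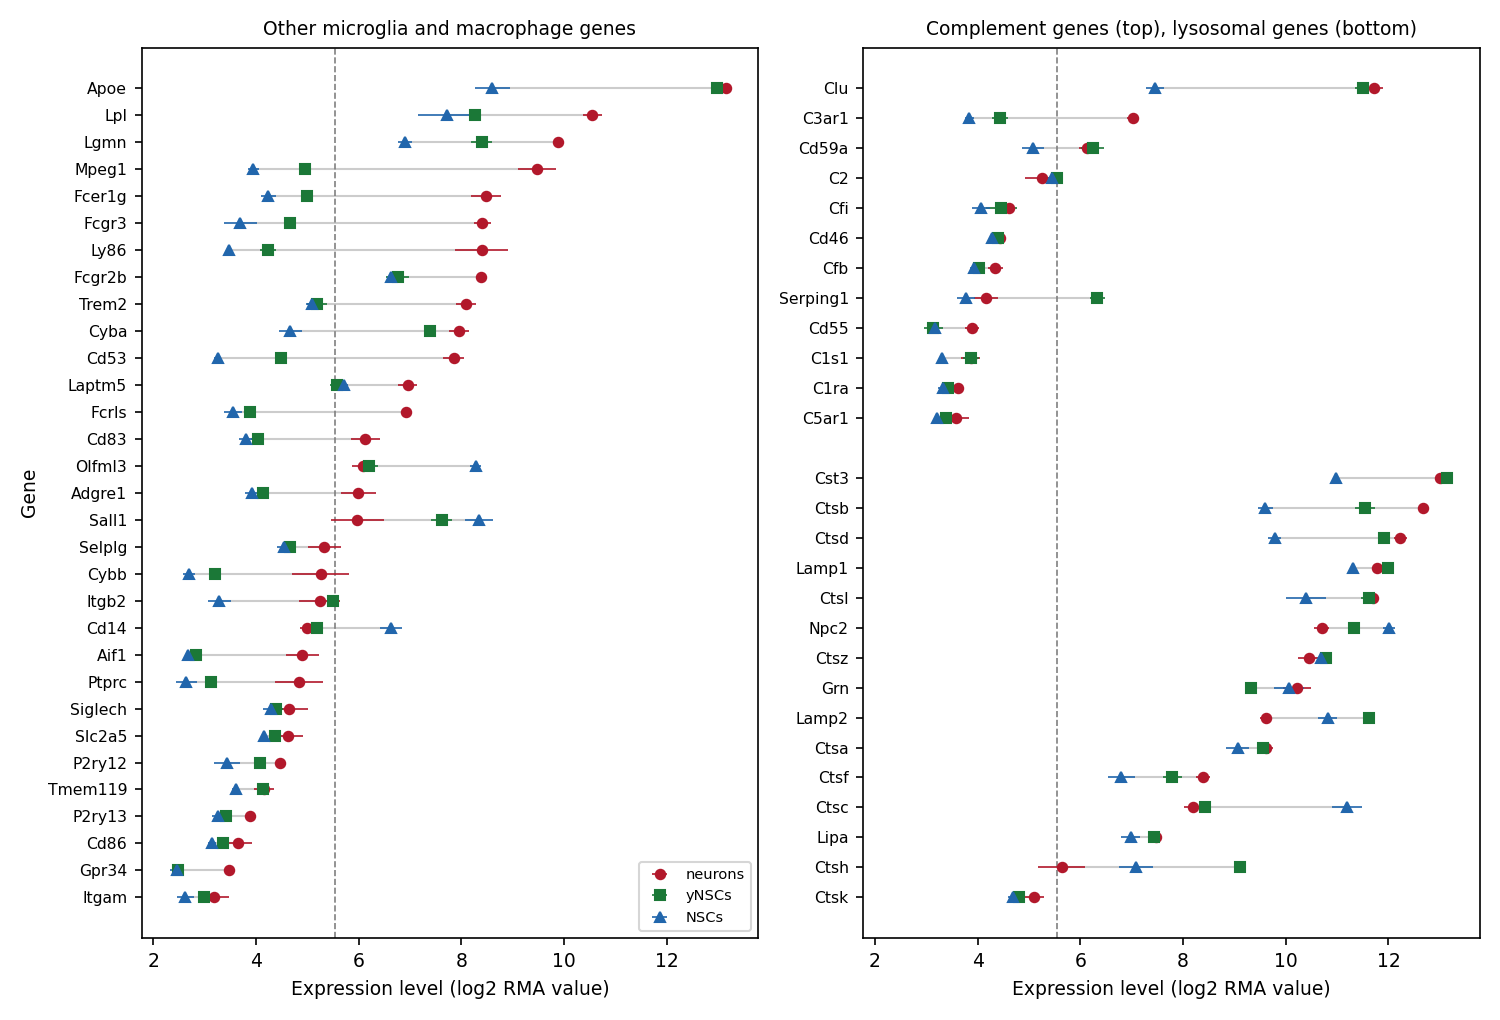
Mean expression level (log2 RMA value, horizontal axis) of 31 other microglia and macrophage genes (left) and of 12 complement and 15 lysosomal genes (right) in neurons (circles), yNSCs (squares) and NSCs (triangles), with SD over 3 arrays as bars. The dashed line is the highest background level, 5.54. On the left 17 genes lie above the background level of their group in neurons and 9 in yNSCs, among them Apoe and Cyba. Itgb2, counted among those in yNSCs (5.50), lies under the drawn line. On the right the lysosomal genes lie above background in all groups, apart from Ctsk.

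Likeness of pattern was measured as the Euclidean distance between the gene-centred values over the 9 arrays and the mean centred profile of the 3 C1q chains. Nearest among all other genes were Fam107a (distance 0.416), Gabrb1 (0.680), Vstm2a (0.745), Chgb (0.860) and Kif5a (0.864), none of them among the 10. Gabrb1 encodes a subunit of a GABA receptor, Chgb a protein of secretory granules and Kif5a a neuronal kinesin. Of the other members, Tyrobp ranked 10th (0.987), Ctss 166th, Csf1r 236th, Lyz2 419th, Cx3cr1 804th, Cd68 904th and Lyz1 1399th. The 3 groups dominate this measure, and it carries no information on which cells express a gene.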

How the data were processed

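RNA from 9 cultures (3 groups of 3) was hybridised to Affymetrix Mouse430_2 arrays. The deposited values are log2 summaries per probe set, which the authors computed with RMA (version not given in the sources used here), and they were used as deposited. Array depth has no counts, so the number of arrays limits the precision. Lower quartiles lay between 3.42 and 3.73.

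Control probe sets (64) were left out. The array annotation named 34945 probe sets by 1 symbol, of which 34741 matched RefSeq by gene ID. Several symbols (932) or none listed (9160) kept a probe set out. Where a gene had more than 1 probe set (9010 of 18193 genes), that of highest mean stood for it. A model of 3 group means was fitted to 9 arrays with limma 3.58.1 in R 4.3.3. It used lmFit, contrasts.fit and eBayes, with 6 residual and 5.59 prior degrees of freedom. Tests were two-sided, with Benjamini-Hochberg adjustment over 18193 genes and no minimum fold. The fit was also run on simulated arrays in which far fewer genes changed than were called here. That run does not give the error rate for these data. An exact permutation test of 3 against 3 arrays cannot go below p = 0.1. The labels call replicates biological but do not state whether they came from separate animals, so p-values measure the spread between these arrays.

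The members and gene lists were chosen with earlier results of these data known. Beside the members, genes named are up to 4 called and 2 not called of each list, of largest difference in yNSCs against neurons, and the 5 nearest to the C1q profile. Others named with values were chosen after their values were seen, as the text says. As alternatives, the fit was repeated with a replicate block, on the 6 arrays of each comparison, without the 40% of genes of lowest mean, after quantile normalization or centring on array medians, with probe sets averaged or fitted separately, with a trended robust prior, with a 2-fold minimum, without each array in turn, and with other background levels. The labels do not state whether letters pair the arrays across groups, and the main fit did not pair them. The correlation of deviations was -0.105 to 0.0997 for the same letter and -0.184 to 0.136 for others. These correlations cannot show whether arrays of the same letter came from the same culture.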

Additional observations from a re-analysis of the deposited data

How the results depend on the processing

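The counts of members called (10 lower in yNSCs and 10 lower in NSCs against neurons, 9 higher in yNSCs against NSCs) stayed within 1 of these under every alternative run and did not move when any array was left out. Leaving out the 40% of genes of lowest mean removed Cx3cr1 from the test, so that 9 of 9 were called lower in both comparisons with neurons. With the replicate block the counts were 10, 10 and 9, and no call of a member changed. With a 2-fold minimum Cd68 (-0.73) was no longer called in yNSCs against neurons, nor C1qc (0.66) in yNSCs against NSCs. The number of members at background in yNSCs, 5 as given, was 0 with the lower quartile of the arrays as the background level and 3 (C1qb, C1qc and Cx3cr1) with the array median. The mean of all probe sets moved differences of C1qb, Csf1r, Lyz1 and Cx3cr1 by over 1.5-fold, with the direction and call kept. The smallest differences over all alternatives in yNSCs against neurons were -4.45 for C1qb, -1.90 for Csf1r, -1.36 for Lyz1 and -1.42 for Cx3cr1.

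Counts of the other lists moved more. Without the 40% of genes of lowest mean, called lower in yNSCs against neurons were 10 other microglia genes (21 as given), 2 perivascular (7), 0 complement (3) and 5 myeloid ligand and factor genes (10), and in NSCs against neurons 11 (27), 3 (10), 2 (10) and 6 (12). Fewer genes of each list were tested there. Called higher in yNSCs against NSCs were 7 other microglia (12), 1 perivascular (2) and 2 complement genes (5), and in yNSCs against neurons 0 complement genes (1). With a 2-fold minimum, called lower in yNSCs against neurons were 2 myeloid ligand and factor (10), 1 lysosomal (5) and 1 complement gene (3), and called higher 3 myeloid (6) and 2 lysosomal genes (5). In NSCs against neurons 5 myeloid (12), 5 lysosomal (9), 4 perivascular (10) and 3 complement genes (10) were then called lower, and in yNSCs against NSCs 6 other microglia (12), 5 myeloid (9), 5 lysosomal (10), 3 complement (5) and 0 perivascular genes (2) higher and 1 lysosomal gene (3) lower. After quantile normalization 4 complement (10) and 6 perivascular genes (10) were called lower in NSCs against neurons and 3 lysosomal genes (5) higher in yNSCs against neurons. With array medians subtracted 3 lysosomal genes (5) were called lower and 2 complement genes (1) higher in yNSCs against neurons. Without neuron replicate B 2 other microglia genes (1) were called higher there, and without NSC replicate B 1 perivascular gene (2) was called higher in yNSCs against NSCs. Background on the array limits how far the low values of yNSCs and NSCs can be ordered. The protein comparison of the lysozymes and C1q chains was not run.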

Other observations

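A few genes of the lists, named after their values were seen, were called higher in yNSCs than in NSCs. Of all genes 21.3% were called higher there and 18% lower. Of 31 other microglia and macrophage genes 12 were called higher and 3 lower (Olfml3 -2.07, Cd14 -1.44 and Sall1 -0.72). Of 12 complement genes 5 were called higher and 0 lower, and of 10 astrocyte markers 5 higher and 1 lower (Aldoc, -1.20). Apoe, a lipid carrier of astrocytes and microglia, read 13.16 ± 0.08 in neurons, 12.97 ± 0.09 in yNSCs and 8.60 ± 0.34 in NSCs (SD, n = 3), a difference of 4.37 between yNSCs and NSCs (limma adjusted p = 1.16e-09) and of -0.19 between yNSCs and neurons (adjusted p = 0.290). Clu, a secreted chaperone also made by astrocytes, read 11.71, 11.51 and 7.45 in the same order, a difference of 4.05 between yNSCs and NSCs (adjusted p = 9.00e-10). Cyba, a subunit of the phagocyte oxidase, read 7.96, 7.39 and 4.67. It was 2.72 higher in yNSCs than in NSCs (adjusted p = 1.95e-08) and differed by -0.57 between yNSCs and neurons (adjusted p = 0.00286). The integrin chain Itgb2 read 5.24, 5.50 and 3.28, a difference of 2.21 between yNSCs and NSCs (adjusted p = 1.06e-06). Itgb2 lay below background in neurons and NSCs and just above the level of 5.40 in yNSCs, so this size is uncertain. The astrocyte marker Gfap read 7.62 in neurons, 9.23 in yNSCs and 3.80 in NSCs. Which cells express these genes was not tested.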
